A study of Mus musculus with 12 samples.

Results

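Transcripts of the matrix metalloproteases (Mmp genes), the ADAM and ADAMTS proteases (Adam and Adamts genes) and the tissue inhibitors of metalloproteases (Timp genes) were followed through mouse lungs and the vesicles of cultured lung mesenchymal cells. Members were taken by gene symbol, as every Mmp, Timp, Adam or Adamts gene with a number directly after the stem, leaving out Mmp8, Mmp9 and Mmp12. This gave 76 of the 21950 genes listed for lung and 19 of the 8096 genes listed for vesicles, and all 19 were also among the 76. The rule uses symbols only, not measured values.

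Sequenced RNA came from flash-frozen whole lungs of C57BL/6 mice of adult age and from extracellular vesicles, the membrane particles that cells shed, taken from the medium of lung mesenchymal cells cultured for 48 hours. Of the 12 libraries, 2 lung libraries and 2 vesicle libraries were labelled mutant, and 4 lung libraries and 4 vesicle libraries were labelled wild type. By genotype label the mutant libraries are ColcreER with Tbx4 flox/flox, where CreER is a Cre recombinase that tamoxifen activates, Col is its driver and Tbx4 is a transcription factor of lung mesenchyme. The design text of the series instead names Tbx4creER with Ghr flox/flox, so that Tbx4 would be the driver and the growth hormone receptor gene Ghr the floxed gene. The animals and cells of the 2 libraries per source are therefore called mutant-labelled here. The labels give neither the tamoxifen treatment, the exon lost, a genotype for the cultured cells beyond their title, nor how many animals or cultures stand behind a library. No label says that the libraries of a group came from separate animals or cultures, so p-values measure the spread between these libraries, which may be in part technical.

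Matrix metalloproteases cut collagens, gelatin and other matrix proteins, and some are secreted while others, the membrane-type ones, stay on the cell surface. ADAM proteases are membrane proteins that release the outer parts of growth factors, cytokines and adhesion molecules, and the secreted ADAMTS proteases trim procollagens and large proteoglycans such as versican. The TIMP proteins bind the active site of these enzymes, so that a tissue's proteolysis depends on both sides, in addition to the activation of the inactive precursors.

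The enzymes share a short zinc-binding motif in the catalytic domain, in which 3 histidines hold the zinc ion and a glutamate takes part in catalysis. In the coding sequences of GENCODE M1 on the mm9 genome, searched in frame on the coding strand for this metzincin motif with its central glycine, 53 of the 76 members held it. It was found in 20 of 20 Mmp genes, 20 of 33 Adam genes, 13 of 19 Adamts genes and 0 of 4 Timp genes, against 70 of all 22737 protein-coding genes, or 0.308%. Of the 19 members listed in vesicles 14 held it, and the 5 without were Adam23, Adamts1, Timp1, Timp2 and Timp3. Adam23 is an ADAM protein without protease activity that binds integrins. Adamts1 is an active protease whose sequence was not matched by this strict form of the motif. The 33 bases of the motif are shown for proteases whose levels are described in vesicles below, 5′ to 3′ on the coding strand. The codons of the 3 histidines and of the glutamate are in capitals.
Adam8, chr7:147173792-147173824, minus strand: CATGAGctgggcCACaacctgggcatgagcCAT
Adam12, chr7:141152841-141152873, minus strand: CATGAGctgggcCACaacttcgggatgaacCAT
Adam9, chr8:26100798-26100830, minus strand: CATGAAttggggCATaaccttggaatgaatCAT
Adam17, chr12:21342593-21342625, minus strand: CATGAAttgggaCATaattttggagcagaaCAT
Adam10, chr9:70602103-70609392, plus strand, split over 2 exons: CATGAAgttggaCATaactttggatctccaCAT
Mmp2, chr8:95363178-95363210, plus strand: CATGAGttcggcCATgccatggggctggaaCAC
Mmp14, chr14:55056464-55056496, plus strand: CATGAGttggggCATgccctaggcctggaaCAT

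Levels are given as RPKM, the reads of a gene per kilobase of its exons and per megaread counted in genes. The lung libraries held 42.7 to 44.8 megareads in genes. The mutant-labelled vesicle libraries held 1.75 and 1.68 megareads and the wild-type vesicle libraries 4.2 to 5.41 megareads, so vesicle values carry more counting error. A read per kilobase was worth 0.0223 to 0.0234 RPKM in lung and 0.185 to 0.596 RPKM in vesicles. Tbx4 had 20.9 and 36.8 RPKM in the mutant-labelled lungs, against 29.7, 26.1, 29.0 and 30.1 RPKM in wild-type lungs, and was not listed in vesicles. Ghr had 9.83 and 12.9 RPKM in the mutant-labelled lungs, against 11.9 to 13.4 RPKM in wild-type lungs, and in vesicles 13.1 and 11.2 RPKM in mutant-labelled libraries, against 19.8 to 25.1 RPKM in wild-type libraries (log2 difference -0.83, SE 0.66, adjusted p = 0.63, limma). The Y-linked genes Ddx3y and Eif2s3y had 15.4 to 20.6 RPKM in wild-type lung replicates 1 and 2 and 10.9 to 52.6 RPKM in wild-type vesicle replicates 1 and 2, and at most 0.143 RPKM in all other libraries, the mutant-labelled ones included. Mutant-labelled vesicle replicate 1 stood apart from the other 5 vesicle libraries: Dcn, a matrix proteoglycan of fibroblasts, was at 0.55 RPKM there, against 311 RPKM in the other mutant-labelled library and 164 to 357 RPKM in the wild-type ones. The sum of 5 smooth muscle markers was 262 RPKM in that library, against 1991 RPKM in the other mutant-labelled library and 964 to 1898 RPKM in the wild-type ones. None of the 5 endothelial and 5 epithelial markers was listed in vesicles.

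In whole lung 2 of the 4 inhibitors were the most abundant members. Timp2 and Timp3 had the highest mean levels of the 76, and the proteases next to them were Mmp15, Mmp2, Adam9, Adam10, Adamts10, Adamts1, Mmp14 and Adam15. Mean levels over the 6 lungs were 164 RPKM for Timp2 and 48.0 RPKM for Mmp15, the highest protease. Of the 76 members 9 were at 0 in all 6 lungs: Adam2, Adam20, Adam24, Adam26a, Adam26b and Adam34, which are known from testis, the collagenases Mmp1a and Mmp1b, and Mmp20, an enzyme of tooth enamel. A further 29 members stayed under 1 RPKM in every lung, which makes 38 with the 9. A gene entered the test when 2 or more libraries reached 1 RPKM, which held for 35 members in lung, and the 41 others did not exceed 1.21 RPKM in any lung. Some of the 41 belong to groups of near-identical copies, such as Adam26a and Adam26b, both at 0. Reads that match several copies may be missing from such genes.

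**Figure D1:**
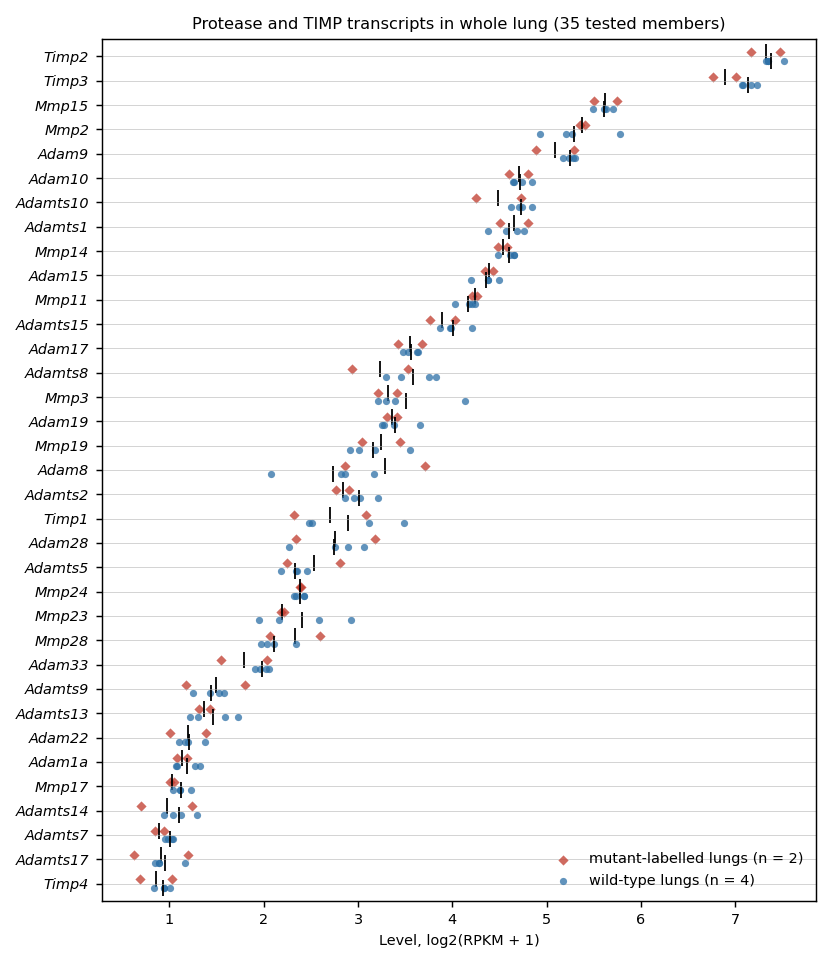
Levels of the 35 tested members in each lung library as log2(RPKM + 1), with mutant-labelled lungs (n = 2) as diamonds above wild-type lungs (n = 4) as circles, and group means as black ticks. Timp2 and Timp3 sit above all proteases, and only Timp3 and Adamts7 have both mutant-labelled lungs below every wild-type lung.

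The question in lung was which of these transcripts differed between mutant-labelled and wild-type animals. None of the 35 tested members passed an adjusted p of 0.05 in limma's test on log2(RPKM + 1), where the smallest member value was 0.994, and 0 of all 13701 genes did (0.0%), with a smallest adjusted p of 0.364. At an unadjusted p under 0.05, 1 member was lower in mutant-labelled lungs, Timp3, beside 1.21% of all genes. No member was higher at that level, beside 2.54% of all genes. The differences were small. In 32 of 35 members the log2 difference was within 0.25 of 0, with 12 above and 23 below 0 (10 and 25 after median-ratio scaling). Across all genes 55.7% lay above 0 and 44.3% below. The members' median was -0.05, beside 0.01 for all genes tested. Both mutant-labelled lungs were below all 4 wild-type lungs in 2 members, Timp3 and Adamts7, beside 4.12% of all genes. In 0 members were both above all 4, beside 7.5% of all genes. The whole lung is a mixture of cell types, so fewer cells of a type and less RNA per cell cannot be told apart in these values.

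Among the inhibitors, Timp3 binds to the matrix and acts on ADAM and ADAMTS enzymes as well as on the metalloproteases. It had 108 and 128 RPKM in the mutant-labelled lungs, against 135, 149, 133 and 143 RPKM in wild-type lungs. The groups did not overlap, the closest lungs being 128 and 133 RPKM. The log2 difference was -0.25 (SE 0.09, unadjusted p = 0.034, adjusted p = 0.994, limma). Without mutant-labelled replicate 1 it was -0.13 and without mutant-labelled replicate 2 it was -0.38, so that the size rested on replicate 1. Timp3 (chromosome 10, 85763117 to 85812251, plus strand of mm9) lies inside Syn3 on the opposite strand. Of its 8144 annotated exon bases 1733 are also exon of Syn3, which was listed at 42.5 to 56.3 RPKM in lung. Whether reads were assigned by strand is not given in the sources used here, so the reads of these genes cannot be told apart in the shared stretch.

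Timp2, which also helps to activate pro-MMP2 at the cell surface, had 143 and 177 RPKM in the mutant-labelled lungs, against 182, 160, 162 and 162 RPKM in wild-type lungs. The groups overlapped, and the log2 difference was -0.06 (SE 0.11, adjusted p = 0.994, limma). Timp1, an inhibitor that inflammation induces in many tissues, had 7.47 and 3.99 RPKM in the mutant-labelled lungs, against 4.56, 10.2, 7.67 and 4.69 RPKM in wild-type lungs. The highest wild-type lung had 2.24 times the level of the lowest. Timp4, the scarcest of the 4, had 1.04 and 0.605 RPKM in the mutant-labelled lungs, against 0.782 to 1.001 RPKM in wild-type lungs. All 4 inhibitors had log2 differences below 0, also after median-ratio scaling, and none passed the adjusted test. Timp2 turned to 0.09 without mutant-labelled replicate 1, and Timp1 and Timp4 turned to 0.18 and 0.10 without mutant-labelled replicate 2.

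Among the tested secreted metalloproteases 4 of 6 lay above 0 in lung. The 4 tested membrane-type ones lay between -0.09 and 0.01, and all 4 below 0 after median-ratio scaling. Mmp2, the gelatinase of mesenchymal cells, had 41.3 and 40.0 RPKM in the mutant-labelled lungs, against 35.8, 29.5, 54.0 and 37.4 RPKM in wild-type lungs. The mutant-labelled values lay within the wild-type range. Mmp14, the membrane-type enzyme that activates pro-MMP2, had 22.9 and 21.4 RPKM in the mutant-labelled lungs, against 23.4, 24.2, 24.1 and 21.4 RPKM in wild-type lungs. Mmp15, a membrane-type relative of Mmp14, had 52.5 and 44.2 RPKM in the mutant-labelled lungs, against 47.9, 44.0, 48.6 and 51.1 RPKM in wild-type lungs. For these 3 genes the log2 differences were 0.09 (SE 0.22), -0.07 (SE 0.07) and 0.01 (SE 0.09). The 95% intervals ran from -0.44 to 0.61 for Mmp2, from -0.24 to 0.11 for Mmp14 and from -0.22 to 0.24 for Mmp15. Mmp11, a secreted enzyme of stromal cells, had 17.4 and 18.2 RPKM in the mutant-labelled lungs, against 15.3 to 17.9 RPKM in wild-type lungs. Mmp28, an enzyme made by epithelium and other cells, had 3.17 and 5.03 RPKM in the mutant-labelled lungs, against 2.91 to 4.06 RPKM in wild-type lungs.

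The sheddases Adam10 and Adam17 hardly varied between lungs. Adam10, which cleaves Notch receptors and cadherins, had 23.2 and 26.9 RPKM in the mutant-labelled lungs, against 24.3, 24.0, 27.6 and 25.7 RPKM in wild-type lungs. Adam17, which releases TNF and EGF-receptor ligands, had 9.73 and 11.8 RPKM in the mutant-labelled lungs, against 10.5, 11.3, 11.4 and 10.1 RPKM in wild-type lungs. The log2 differences were -0.02 (SE 0.09, 95% interval -0.23 to 0.20) for Adam10 and -0.01 (SE 0.09, 95% interval -0.23 to 0.21) for Adam17. Adam9, a membrane protease of many tissues, had 28.5 and 38.3 RPKM in the mutant-labelled lungs, against 37.9, 38.5, 36.8 and 35.1 RPKM in wild-type lungs. Adam15, expressed in endothelium among other cells, had 19.4 and 20.6 RPKM in the mutant-labelled lungs, against 17.4 to 21.5 RPKM in wild-type lungs. Adam33, a mesenchymal protease known from studies of asthma, had 3.09 and 1.93 RPKM in the mutant-labelled lungs, against 2.74 to 3.16 RPKM in wild-type lungs.

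Adam8, a protease of myeloid cells, had the largest positive log2 difference of the lung members. It had 12.1 and 6.29 RPKM in the mutant-labelled lungs, against 3.23, 6.05, 7.99 and 6.24 RPKM in wild-type lungs. The groups overlapped, with a log2 difference of 0.56 (SE 0.35, unadjusted p = 0.157, adjusted p = 0.994, limma). It was 0.14 without mutant-labelled replicate 1, 0.98 without mutant-labelled replicate 2 and 0.34 without wild-type replicate 1. With the Y-linked transcripts as a covariate it was 0.27. The summed level of 7 of 8 macrophage markers was 733 and 223 RPKM in the mutant-labelled lungs, against 166, 177, 876 and 167 RPKM in wild-type lungs. The 2 lungs with the highest Adam8, mutant-labelled 1 and wild-type 3, were also the 2 with the highest macrophage sums. Most of both sums was Chil3, at 610 and 741 RPKM in these lungs, against 96.3 to 145 RPKM in the others. Cd68, Mmp12, Mrc1 and Marco were also highest in these 2 lungs, and Adgre1 was not. Ear2 hardly varied, at 34.5 to 37.5 RPKM over all lungs. The size of the sums is therefore not a measure of macrophage content. The sum of 8 of 8 neutrophil markers was 414 and 834 RPKM in the mutant-labelled lungs, against 109 to 214 RPKM in wild-type lungs. The part of either cell type in the Adam8 level was not tested.

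Of the 11 tested ADAMTS genes 3 lay above 0 and 8 below. Adamts10, which binds fibrillin microfibrils, had 18.0 and 25.5 RPKM in the mutant-labelled lungs, against 25.6, 23.6, 25.04 and 27.8 RPKM in wild-type lungs. Adamts8, a proteoglycan-cleaving member abundant in lung, had 6.67 and 10.6 RPKM in the mutant-labelled lungs, against 12.5, 13.2, 8.81 and 9.93 RPKM in wild-type lungs. In both genes mutant-labelled lung 1 was the lowest of the 6 and mutant-labelled lung 2 lay among the wild-type values. The log2 differences were -0.24 (SE 0.14) for Adamts10 and -0.35 (SE 0.21) for Adamts8, and without mutant-labelled replicate 1 they were 0.00 and -0.05. The sum of 9 alveolar fibroblast markers was likewise lowest in mutant-labelled lung 1, with 1199 and 1719 RPKM in the mutant-labelled lungs, against 1381 to 1618 RPKM in wild-type lungs. So was the sum of 5 endothelial markers, with 594 and 877 RPKM in the mutant-labelled lungs, against 675 to 786 RPKM in wild-type lungs. The sum of 7 mesenchyme markers was not, with 277 and 302 RPKM in the mutant-labelled lungs, against 271 to 288 RPKM in wild-type lungs. Taken singly, however, Tbx4, Col1a1, Col1a2 and Pdgfrb of this sum were each lowest in mutant-labelled lung 1. They had 20.9, 50.4, 33.3 and 24.4 RPKM there, against at least 26.1, 55.6, 36.7 and 32.9 RPKM in every other lung. Col3a1, Dcn and Lum, also in the sum, are not given singly here. The part of cell makeup in these levels was not tested. Adamts2, which removes the N-terminal propeptide of fibrillar procollagens, had 5.79 and 6.51 RPKM in the mutant-labelled lungs, against 6.28 to 8.25 RPKM in wild-type lungs. Adamts7 had 0.793 and 0.922 RPKM in the mutant-labelled lungs, against 0.937 to 1.05 RPKM in wild-type lungs. Its groups did not overlap, with a log2 difference of -0.11 (SE 0.08, unadjusted p = 0.202, adjusted p = 0.994, limma). Adamts1, an aggrecan and versican protease, had 21.7 and 26.8 RPKM in the mutant-labelled lungs, against 19.8 to 26.1 RPKM in wild-type lungs. Adamts5, the main aggrecanase of mouse cartilage, had 6.02 and 3.73 RPKM in the mutant-labelled lungs, against 3.54 to 4.50 RPKM in wild-type lungs.

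**Figure D2:**
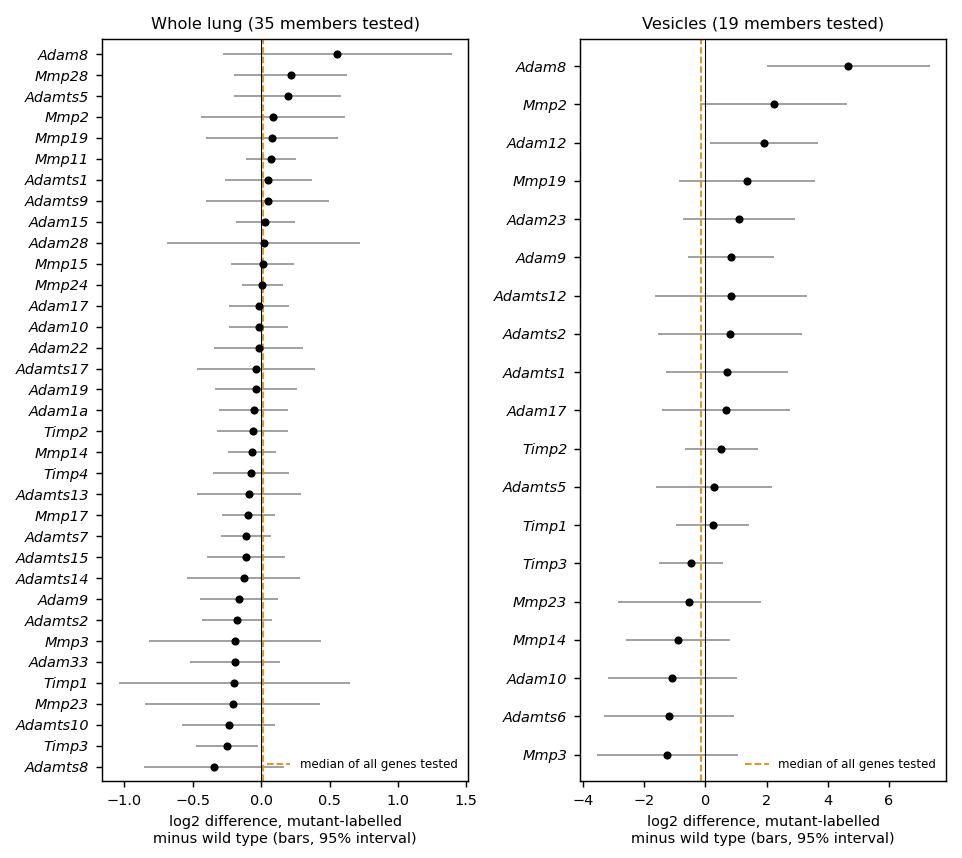
Fitted log2 difference, mutant-labelled minus wild type, of each tested member in lung (left) and in vesicles (right), with limma's 95% interval as a bar and the median of all genes tested as a dashed line. The 2 horizontal scales differ: lung differences run from -0.35 for Adamts8 to 0.56 for Adam8, and vesicle differences from -1.24 for Mmp3 to 4.67 for Adam8.

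Of genes that act with these enzymes none was called in lung. Of the tested genes that activate or restrain metalloproteases 0 of 12 passed, of the partners of ADAM10 and ADAM17 0 of 7, of their shed substrates 0 of 19, of the ADAMTS substrates 0 of 7, and of the ADAMTS-like genes and astacins 0 of 9. All 9 genes of the last group had log2 differences below 0, with a median of -0.10, beside 0.01 for all genes. The gene with the smallest p among them was Adamtsl2, a microfibril protein, with 5.88 and 9.08 RPKM in the mutant-labelled lungs, against 10.3 to 12.2 RPKM in wild-type lungs (log2 difference -0.51, SE 0.16, unadjusted p = 0.016, adjusted p = 0.994, limma). Bmp1, the procollagen C-proteinase, had 12.5 and 11.9 RPKM in the mutant-labelled lungs, against 12.7 to 17.1 RPKM in wild-type lungs. Tnfrsf1b, a TNF receptor that ADAM17 sheds, had 16.1 and 17.6 RPKM in the mutant-labelled lungs, against 12.3 to 15.6 RPKM in wild-type lungs (log2 difference 0.30, adjusted p = 0.994, limma). Tspan14, a tetraspanin that carries ADAM10 to the surface, had 29.0 and 32.6 RPKM in the mutant-labelled lungs, against 23.0 to 27.8 RPKM in wild-type lungs.

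Vesicles of mesenchymal cells held a narrower set of members. Each gene listed for vesicles had a mean of at least 2.003 RPKM in the mutant-labelled or the wild-type group, and 57 lung members were not listed, among them 20 that were tested in lung. The most abundant lung members not listed in vesicles were Mmp15, Adamts10, Adam15 and Mmp11. Conversely, 4 of the 19 vesicle members, Adam12, Adam23, Adamts6 and Adamts12, were too low to be tested in lung. The 19 comprised Timp1, Timp2 and Timp3, Mmp2, Mmp3, Mmp19 and Mmp23, which are counted here with the secreted enzymes, the membrane-type Mmp14, the 6 genes Adam8, Adam9, Adam10, Adam12, Adam17 and Adam23, and the 5 genes Adamts1, Adamts2, Adamts5, Adamts6 and Adamts12. All 19 were tested. The listing limit bears on the comparison between groups: 7 members, Adam10, Adam12, Adam17, Adam23, Adamts6, Mmp19 and Mmp23, had a mean under 2 RPKM in one group, so that their means had to differ for them to be listed at all, and 12 had at least 2 RPKM in both.

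**Figure D3:**
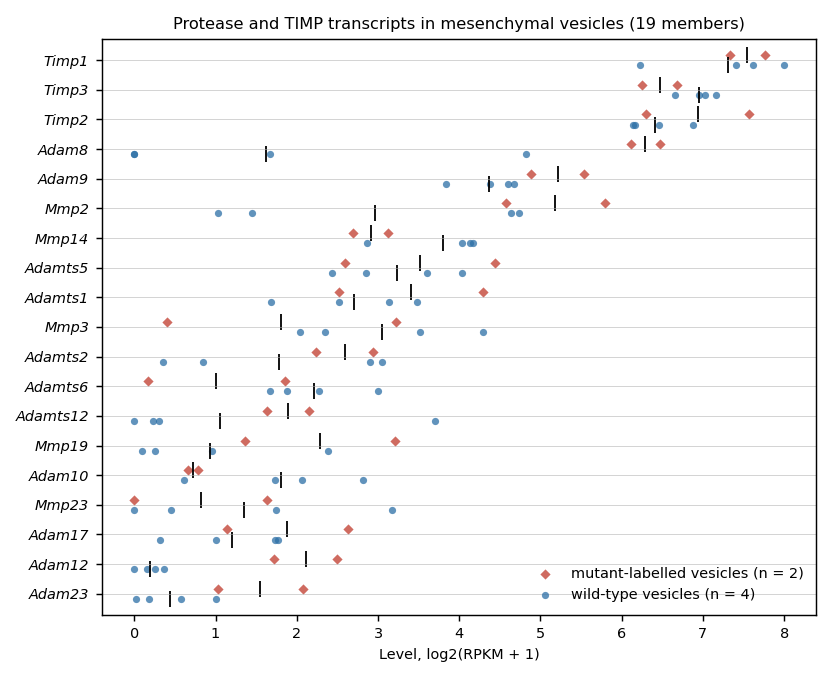
Levels of the 19 vesicle members in each vesicle library as log2(RPKM + 1), with mutant-labelled libraries (n = 2) as diamonds above wild-type libraries (n = 4) as circles, and group means as black ticks. Timp1, Timp2 and Timp3 have the highest means in both groups, and the wild-type libraries spread widely for Adam8 and Mmp2.

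Between mutant-labelled and wild-type vesicles 0 of 19 members passed the adjusted threshold, with a smallest adjusted p of 0.421, and 0 of all 7615 genes tested did (0.0%), with a smallest value of 0.229. At an unadjusted p under 0.05, 2 members were higher in mutant-labelled vesicles, Adam8 and Adam12, beside 5.23% of all genes. No member was lower at that level, beside 5.03%. Log2 differences were above 0 in 13 members and below in 6, against 46.0% and 54.0% of all genes, and the members' median was 0.68, beside -0.14 for all genes. Without mutant-labelled replicate 2 the members' median was -0.02, beside -0.63 for all genes. In 4 members, Adam8, Adam12, Adam23 and Adam9, both mutant-labelled libraries were above all 4 wild-type ones, beside 9.88% of all genes, and in 0 members were both below, beside 9.94%. Adam12 and Adam23 are among the 7 members with a mean under 2 RPKM in one group. The replicates themselves varied widely. Over the 15 members without a wild-type library at 0, the highest wild-type library was a median 4.64 times the lowest, against 1.31 times over the 35 lung members.

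Timp1, Timp2 and Timp3 had the highest mean levels of the 19 vesicle members. Timp1 had 160 and 216 RPKM in mutant-labelled vesicles, against 195, 73.9, 254 and 169 RPKM in wild-type vesicles. Timp2 had 189 and 77.6 RPKM in mutant-labelled vesicles, against 69.6, 117, 70.9 and 87.2 RPKM in wild-type vesicles. Timp3 had 74.9 and 102 RPKM in mutant-labelled vesicles, against 129, 99.5, 142 and 123 RPKM in wild-type vesicles. All 3 overlapped between groups. The log2 differences were 0.23 (SE 0.55) for Timp1, 0.52 (SE 0.55) for Timp2 and -0.48 (SE 0.49) for Timp3, with adjusted p of 0.866, 0.702 and 0.688 (limma). The Timp2 difference rested on mutant-labelled replicate 1, without which it was -0.12. Syn3, which shares exon bases with Timp3, was listed at 4.11 to 39.9 RPKM in vesicles.

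Adam8 had the largest log2 difference of the vesicle members on the log2(RPKM + 1) scale. It had 88.0 and 68.0 RPKM in mutant-labelled vesicles, against 0, 2.17, 27.3 and 0 RPKM in wild-type vesicles, which stood for 712 and 529 reads in mutant-labelled libraries and for 0, 47, 532 and 0 reads in wild-type libraries. A level of up to 0.144 RPKM in wild-type replicate 1 and 0.12 RPKM in replicate 4 would be compatible with no read, taking 3 reads as the limit, which covers counting error only. Mutant-labelled vesicles averaged 78.0 ± 14.1 RPKM (SD, n = 2) and wild-type vesicles 7.37 ± 13.3 RPKM (SD, n = 4), a ratio of 10.6. The log2 difference was 4.67 (SE 1.23, 95% interval 2.01 to 7.33, unadjusted p = 0.00224, adjusted p = 0.421, limma), and it ranged from 4.13 to 5.74 with each library left out in turn. On the recovered reads limma-voom gave 7.64 with an adjusted p of 0.20. The gene lies on chromosome 7, 147164831 to 147178461, minus strand of mm9.

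The summed macrophage markers were, like Adam8, highest in both mutant-labelled vesicle libraries. Of 8 macrophage markers 4 were listed in vesicles, Cd68, Mmp12, Mrc1 and Adgre1, and Marco, Siglec5, Chil3 and Ear2 were not. The 4 summed to 365 and 286 RPKM in mutant-labelled vesicles, against 1.76, 159, 127 and 11.2 RPKM in wild-type vesicles. Cd68, a lysosomal protein of macrophages, had 275 and 203 RPKM in mutant-labelled vesicles, against 0.18, 105, 101 and 9.56 RPKM in wild-type vesicles. It made up most of the sum in both mutant-labelled libraries. Mmp12 also separated the groups, with 74.1 and 51.5 RPKM against 0.82 to 39.6 RPKM in wild type. Mrc1 and Adgre1 overlapped. Mrc1 had 10.8 and 20.3 RPKM against 0 to 12.3 RPKM, and Adgre1 had 5.12 and 11.6 RPKM against 0 to 7.34 RPKM. Both wild-type libraries with 0 Adam8 reads, replicates 1 and 4, were also the lowest in this sum, while replicate 2 had 159 RPKM of macrophage markers beside 2.17 RPKM of Adam8. Ptprc, the common leukocyte antigen, had 2.25 and 2.18 RPKM in mutant-labelled vesicles, against 0.01, 3.42, 2.28 and 0.02 RPKM in wild-type vesicles. Of 8 neutrophil markers only S100a8 and Mmp8 were listed, with a sum of 0 and 56.4 RPKM in mutant-labelled vesicles, against 35.9, 19.2, 72.7 and 77.0 RPKM in wild-type vesicles. The part of macrophage RNA in the Adam8 difference was not tested.

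**Figure D4:**
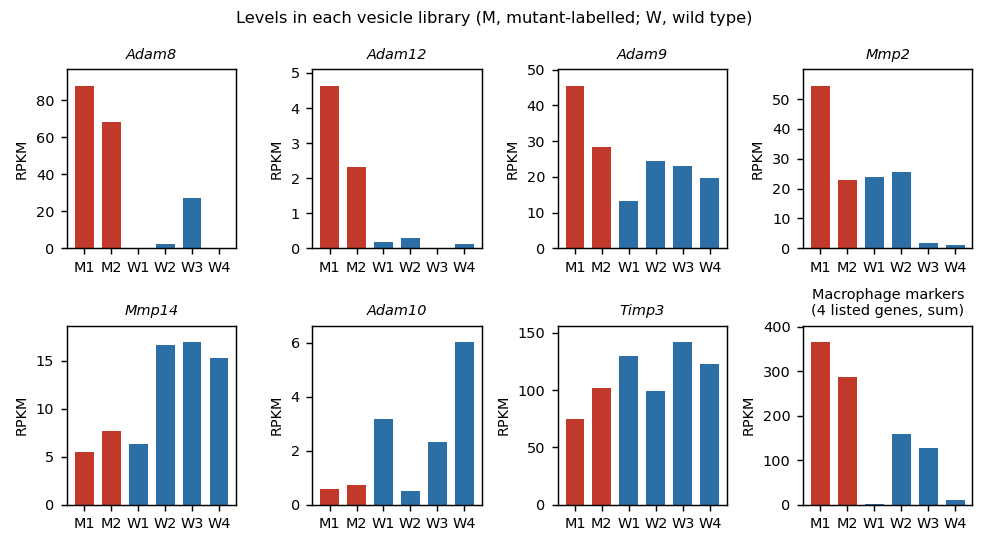
Levels in RPKM of 7 members and the sum of the 4 listed macrophage markers in each vesicle library, mutant-labelled (M1 and M2) left of wild type (W1 to W4). Adam8 is at 88.0 and 68.0 RPKM in the mutant-labelled libraries and above 3 RPKM in only 1 wild-type library, and Mmp2 is at 22.8 RPKM or above in 4 libraries and at 1.72 and 1.04 RPKM in wild-type libraries 3 and 4.

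Adam12, a protease of growing mesenchyme and muscle, had 4.64 and 2.31 RPKM in mutant-labelled vesicles, against 0.189, 0.285, 0 and 0.112 RPKM in wild-type vesicles. These levels rested on 67 and 32 reads in mutant-labelled libraries and on 7, 11, 0 and 5 reads in wild-type libraries. The groups did not overlap, with a log2 difference of 1.92 (SE 0.82, unadjusted p = 0.036, adjusted p = 0.485, limma), but the wild-type mean of 0.147 RPKM is under the listing limit. The ratio of its group means, 23.7, was larger than that of Adam8, from far fewer reads. Adam9 had 45.6 and 28.4 RPKM in mutant-labelled vesicles, against 13.3, 24.5, 23.2 and 19.7 RPKM in wild-type vesicles. Its groups did not overlap either, and both means were above that limit (log2 difference 0.84, SE 0.65, adjusted p = 0.618, limma). Without mutant-labelled replicate 1 the Adam9 difference was 0.51. Adam23 had 3.21 and 1.03 RPKM in mutant-labelled vesicles, against 0.488, 0.132, 1.01 and 0.010 RPKM in wild-type vesicles, where the closest libraries, 1.03 and 1.01 RPKM, were nearly equal.

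The sheddases were scarce in vesicles. Adam10 had 0.583 and 0.728 RPKM in mutant-labelled vesicles, against 3.18, 0.524, 2.33 and 6.02 RPKM in wild-type vesicles, from 5 and 6 reads in mutant-labelled libraries and 70, 12, 48 and 160 reads in wild-type libraries. Adam17 had 1.201 and 5.17 RPKM in mutant-labelled vesicles, against 0.2497, 2.31, 2.40 and 1.01 RPKM in wild-type vesicles. Both overlapped between groups (log2 differences -1.08, SE 0.97, and 0.68, SE 0.97, adjusted p = 0.652 and 0.779, limma).

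Mmp2 split the wild-type vesicles. It had 54.5 and 22.8 RPKM in mutant-labelled vesicles, against 23.8, 25.6, 1.72 and 1.04 RPKM in wild-type vesicles, from 289 and 116 reads in mutant-labelled libraries and 324, 363, 22 and 17 reads in wild-type libraries. Wild-type replicates 1 and 2 thus lay beside the lower mutant-labelled library and replicates 3 and 4 more than 10-fold below it. Replicates 1 and 2 are also the libraries with Y-linked transcripts. The log2 difference was 2.22 (SE 1.12, unadjusted p = 0.068, adjusted p = 0.501, limma), and 3.95 with the Y-linked transcripts as a covariate (adjusted p = 0.67). Over all 16 alternative runs it ranged from 0.50 to 3.95, and with each library left out in turn from 1.58 to 2.84. The mutant-labelled libraries lack Y-linked transcripts, and the part of sex or of another difference between those cultures was not tested. In lung, wild-type replicates 1 and 2 had 35.8 and 29.5 RPKM and replicates 3 and 4 had 54.0 and 37.4 RPKM. Both lungs with Y-linked transcripts thus lay below both other wild-type lungs, opposite to vesicles and by a smaller factor.

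Mmp14 had 5.46 and 7.72 RPKM in mutant-labelled vesicles, against 6.27, 16.6, 16.9 and 15.3 RPKM in wild-type vesicles. Wild-type replicate 1 lay with the mutant-labelled libraries, and the log2 difference was -0.89 (SE 0.79, adjusted p = 0.649, limma). Mmp3, the stromelysin of fibroblasts, had 0.319 and 8.29 RPKM in mutant-labelled vesicles, against 10.4, 3.10, 4.11 and 18.6 RPKM in wild-type vesicles. It was lowest in mutant-labelled replicate 1, without which its log2 difference was 0.17 in place of -1.24. Mmp19, a basement membrane protease, had 8.23 and 1.57 RPKM in mutant-labelled vesicles, against 0.196, 0.943, 0.070 and 4.23 RPKM in wild-type vesicles. Mmp23, made as a membrane-anchored precursor and released by cleavage, had 0 and 2.10 RPKM in mutant-labelled vesicles, against 2.36, 0, 8.04 and 0.373 RPKM in wild-type vesicles. Neither Mmp19 nor Mmp23 separated the groups.

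The 5 ADAMTS transcripts of vesicles overlapped between groups without exception. Adamts1 had 4.76 and 18.6 RPKM in mutant-labelled vesicles, against 4.76, 10.2, 7.77 and 2.20 RPKM in wild-type vesicles. Adamts5 had 5.03 and 20.7 RPKM in mutant-labelled vesicles, against 6.24, 4.40, 11.2 and 15.4 RPKM in wild-type vesicles. In both genes mutant-labelled replicate 2 was the highest of the 6 libraries and mutant-labelled replicate 1 was not. Adamts2 had 6.69 and 3.71 RPKM in mutant-labelled vesicles, against 0.789, 6.48, 7.24 and 0.277 RPKM in wild-type vesicles. Adamts6, a relative of Adamts10 that acts on microfibrils, had 2.61 and 0.124 RPKM in mutant-labelled vesicles, against 3.84, 2.67, 7.01 and 2.19 RPKM in wild-type vesicles. Adamts12, which cleaves the cartilage protein COMP, had 2.11 and 3.44 RPKM in mutant-labelled vesicles, against 0, 0.172, 0.229 and 12.0 RPKM in wild-type vesicles. Adamts12 therefore rested on a single library in wild type, replicate 4.

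Of the accompanying genes in vesicles, none of the 11 tested regulators of metalloprotease activity, 4 partners of ADAM10 and ADAM17, 9 shed substrates, 7 ADAMTS substrates and 3 ADAMTS-like or astacin genes passed the adjusted threshold. Median log2 differences of these lists, in that order, were 0.18, -0.42, -0.49, 0.26 and -1.24, beside -0.14 for all genes. Cd44, a hyaluronan receptor shed by ADAM10 that also docks metalloproteases at the surface, had 87.8 and 68.5 RPKM in mutant-labelled vesicles, against 15.4, 14.6, 25.1 and 19.2 RPKM in wild-type vesicles. These groups did not overlap (log2 difference 2.03, SE 0.61, unadjusted p = 0.00561, adjusted p = 0.441, limma). Rhbdf2, the iRhom that brings ADAM17 to the surface of myeloid cells, had 24.0 and 5.07 RPKM in mutant-labelled vesicles, against 0, 0.324, 0 and 2.31 RPKM in wild-type vesicles (log2 difference 3.09, SE 1.02, adjusted p = 0.441, limma). Its wild-type mean of 0.658 RPKM is under the listing limit, so that its means had to differ for it to be listed. Thbs1, the matrix protein thrombospondin 1, had 83.3 and 75.6 RPKM in mutant-labelled vesicles, against 51.5, 66.4, 28.3 and 34.6 RPKM in wild-type vesicles. In lung its direction was opposite, with 41.0 and 38.6 RPKM in the mutant-labelled lungs, against 41.9 to 56.0 RPKM in wild-type lungs. The macrophage sums given above were also highest in both mutant-labelled libraries, and their part in these 3 genes was not tested.

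Vesicles and lung were normalized in separate tables, so members were set side by side only by their percentile among the 8096 genes listed in both, without a test. Timp1 lay furthest above its lung rank in both groups. In mutant-labelled libraries it stood at percentile 97.0 ± 0.2 in vesicles and 27.1 ± 12.9 in lung (SD, n = 2 each), and in wild-type libraries at 96.2 ± 1.5 in vesicles and 31.9 ± 12.3 in lung (SD, n = 4 each). Timp2 and Timp3, by contrast, stood above percentile 92 in every library of both sources. Adamts5 stood at percentile 66.1 in mutant-labelled vesicles and 22.9 in mutant-labelled lungs, and at 61.6 in wild-type vesicles and 18.9 in wild-type lungs. Adam8 differed between the groups: it stood at percentile 93.0 in mutant-labelled vesicles and 41.8 in mutant-labelled lungs, and at 32.1 in wild-type vesicles and 28.2 in wild-type lungs. That difference was not tested.

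Adam10 lay furthest below its lung rank in both groups, at percentile 25.4 in mutant-labelled vesicles, against 76.5 in mutant-labelled lungs, and at 37.6 in wild-type vesicles, against 76.9 in wild-type lungs. Adam17 stood at percentile 42.0 in mutant-labelled vesicles and 49.1 in mutant-labelled lungs, and at 27.7 in wild-type vesicles and 49.7 in wild-type lungs. Mmp2 stood at percentile 85.2 in mutant-labelled vesicles and 86.4 in mutant-labelled lungs, and at 54.8 in wild-type vesicles and 85.2 in wild-type lungs, where the vesicle libraries ran from 24.4 to 83.5. In 8 of 19 members every mutant-labelled vesicle library ranked above every mutant-labelled lung (34.1% of all genes) and in 3 below (31.2%). In wild type 6 ranked above (28.3%) and 6 below (23.6%). The median change of percentile from lung to vesicles was 3.54 in mutant-labelled and 3.71 in wild-type libraries. Ranked among all genes listed in each table, it was -6.44 and -20.6, since the lung table also lists genes that are low or absent. In that ranking, most members had every vesicle library below every lung in both groups. Every vesicle library stayed above every lung only for Timp1 in wild type, and for Timp1, Adam8 and Adamts12 in mutant-labelled libraries. Adamts5 then overlapped in both groups, at 61.6 in wild-type vesicles and 55.9 in wild-type lungs.

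**Figure D5:**
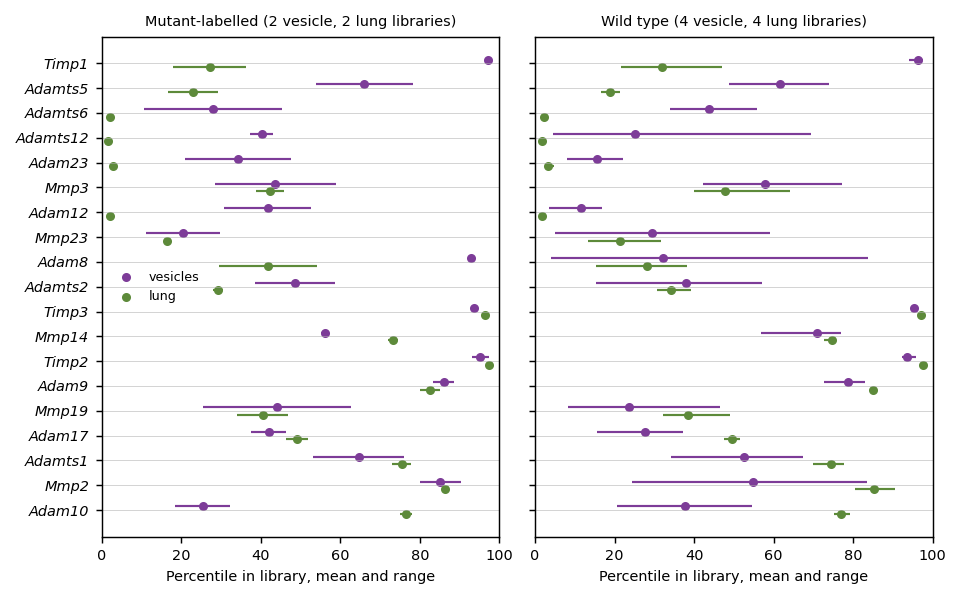
Percentile of each of the 19 shared members among the 8096 genes listed in both tables, as mean and range over libraries, for mutant-labelled (left) and wild-type libraries (right), with vesicles above lung in each row. Timp1 and Adam10 mark the 2 ends in both panels, and Adam8 in vesicles lies at 93.0 in mutant-labelled libraries, with a range from 4.0 to 83.8 in wild-type ones.

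Summed over the listed members, inhibitor transcripts outweighed metalloprotease transcripts in every library, by a larger ratio in each of the 6 vesicle libraries than in any of the 6 lungs. Vesicle sums lack members not listed there, such as Mmp15 and Mmp11, which the lung sums hold. Vesicle and lung ratios therefore cover unlike sets of genes, and how far the listing limit raises the vesicle ratios is not known. The ratio of summed Timp to summed Mmp RPKM was 6.19 and 9.30 in mutant-labelled vesicles and 9.15, 6.27, 15.1 and 9.56 in wild-type vesicles. These sums leave out Mmp8, Mmp9 and Mmp12. With Mmp8 and Mmp12, the ones of these listed in vesicles, the vesicle ratios were 2.97 and 2.77 in mutant-labelled libraries and 6.30, 2.76, 4.72 and 3.28 in wild-type libraries. With all 3 the lung ratios were 1.36 and 1.73 in mutant-labelled libraries and 1.49 to 2.03 in wild-type libraries, each still below every vesicle ratio. Without the 3 genes it was in lung 1.54 and 1.996 in mutant-labelled and 2.10, 2.13, 1.68 and 1.96 in wild-type libraries. The inhibitors took 64.6% and 67.0% of all member RPKM in mutant-labelled vesicles, against 83.8%, 74.3%, 79.5% and 79.3% in wild-type vesicles. In lung they took 41.5% and 45.0% in mutant-labelled libraries, against 42.9% to 46.7% in wild-type libraries. The summed Adam transcripts were 143 and 106 RPKM in mutant-labelled vesicles, against 17.4, 29.9, 56.2 and 26.9 RPKM in wild-type vesicles, and Adam8 alone made up 88.0 and 68.0 RPKM of the mutant-labelled sums.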

How the data were processed

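RNA was sequenced from 6 whole lung and 6 vesicle libraries. Per the submitters' processing notes, reads were aligned to mm9 with TopHat2 and counted with HTSeq, without versions. The sources used here give neither strand setting nor annotation. For each source there is 1 table that the authors deposited, whose headers name no unit. The deposited values were read as RPKM from their steps: with exon lengths of GENCODE M1 or a length that gave whole numbers within 0.02, whole reads were recovered for 99.9% of genes above 0. The count of other value columns was 0. Replicates of a group differed by more than sampling noise.

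Genotype comparisons stayed within a table and used limma-trend (limma 3.58.1, R 4.3.3) on log2(RPKM + 1), with no covariate, on genes that reached 1 RPKM in 2 or more libraries, adjusted over all genes tested (Benjamini-Hochberg, threshold 0.05). This scale understates changes of low genes. Intervals are limma's. Alternatives were pseudocounts of 0.1 and 0.5, no filter or 5 RPKM, median-ratio scaling, library weights, a Y-linked covariate, a replicate block, limma-voom on recovered reads, thinning to equal depth (added after seeing the data) and leaving out each library. voom called 0 members and 0 genes in both tables. On simulated reads drawn from these libraries the test called 100% of 2-fold changes in lung (13559 genes, simulated dispersion 0.00386, 17 false calls). The simulation changed 200 of the better-covered genes and gave every gene the same dispersion, while real genes can vary more. The share of changed genes also affects how strict the adjustment is. Retnlg, chosen after its values were seen, had a log2 difference of 1.95 in lung (unadjusted p = 8.31e-05, limma). It was not called after adjustment over all genes tested (adjusted p = 0.364, limma). No real detection limit follows for lung or vesicles. In vesicles (7421 genes, dispersion 0.357, 6 false calls) the test called 0% of simulated 2-fold, 15.2% of 4-fold and 77.3% of 16-fold changes.

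Members, lists of accompanying genes and markers were chosen with earlier results of these data known. Named are the 4 Timp genes, Mmp2, Mmp14, Adam10 and Adam17, the 10 most abundant members of a table, the 6 with the smallest p in each direction, the 5 that gained and 5 that lost most rank, and up to 3 genes per list. Members with exons shared with another gene (13 of 39 tested or in vesicles, 10 with one on the opposite strand) may mix reads. Tools were Python 3.11.15, pandas 2.3.3 and numpy 2.4.6.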

Additional observations from a re-analysis of the deposited data

Results flagged for a closer look

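Among 40 groups of named members 4 values stood apart from the other 3 wild-type libraries of their source by Dixon's test. Chance alone gives about 1 in 20 for normally distributed values. The test used RPKM without a log scale, and vesicle levels are skewed with some at 0, so that rate may not hold here. In vesicles, Adam8 was at 27.3 RPKM in wild-type replicate 3, against 0 to 2.17 RPKM in the other wild-type libraries. Adamts12 was at 12.0 RPKM in wild-type vesicle replicate 4, against 0 to 0.229 RPKM in the others. Mmp14 was at 6.27 RPKM in wild-type vesicle replicate 1, against 15.3 to 16.9 RPKM in the others, and so lay between the mutant-labelled values of 5.46 and 7.72 RPKM. In lung, Timp2 was at 182 RPKM in wild-type replicate 1, against 160 to 162 RPKM in the others, and above both mutant-labelled lungs.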

How the results depend on the processing

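No member was called in either table under any alternative run. Over the named members and alternatives, 580 log2 differences kept their direction and 40 turned. Those that turned include vesicle genes with larger differences, such as Mmp3 (-1.24), Adamts12 (0.84) and Adamts1 (0.70). Given here are log2 differences, mutant-labelled minus wild type. With the Y-linked covariate, lung Adamts1 was -0.073, Mmp15 -0.048 and Mmp2 -0.14, and vesicle Adamts12 was -0.11, Adamts5 -0.30 and Timp1 -0.16. Median-ratio scaling gave -0.0070 for lung Mmp15. Replicate numbers are shared by both groups, but no label gives them a meaning, and same-numbered libraries did not deviate together (correlations -0.48 and 0.05 in lung, -0.05 and -0.12 in vesicles). With the number as a replicate block, 0 members were called, and lung Adam10 was 0.050 and Adam15 -0.046. The members' lung median of -0.055 was -0.073 with the covariate, -0.071 with voom and -0.070 with a pseudocount of 0.1, and 0.00 without a filter. With each library left out in turn it ran from -0.082 to -0.017, and the vesicle median of 0.68 from -0.023 (without mutant-labelled replicate 2) to 0.68. Ranked among all listed genes, the median changes of percentile were -6.44 in mutant-labelled and -20.6 in wild-type libraries. Causes of these shifts were not tested.

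Among lung members that turned with a library left out, the range was -0.12 to 0.084 for Adam10, -0.025 to 0.072 for Adam15, -0.14 to 0.11 for Adam17, -0.43 to 0.048 for Adam33, -0.37 to 0.045 for Adam9, -0.10 to 0.20 for Adamts1, -0.48 to 0.0022 for Adamts10, -0.092 to 0.48 for Adamts5, -0.11 to 0.13 for Mmp15, -0.12 to 0.28 for Mmp19, -0.036 to 0.25 for Mmp2, -0.049 to 0.48 for Mmp28, -0.58 to 0.18 for Timp1, -0.22 to 0.092 for Timp2 and -0.11 to 0.10 for Timp4. In vesicles it was -0.066 to 1.42 for Adam17, -0.18 to 1.59 for Adamts1, -0.64 to 1.21 for Adamts5, -1.35 to 0.29 for Mmp23, -2.65 to 0.17 for Mmp3, -0.13 to 0.46 for Timp1 and -0.12 to 1.16 for Timp2. Vesicle Adam12 had too few libraries at 1 RPKM to be tested without either mutant-labelled one. Depth limits the vesicles: 5 to 6 reads stand behind Adam10 in the mutant-labelled libraries.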
